A study of Mus musculus with 8 samples.

Results

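Transcripts of 10 fatty acid desaturase and elongase genes were followed in mouse 3T3-L1 adipocytes under a saturated fatty acid load and under inhibition of PI3K p110α. The genes are the desaturases Scd1, Scd2, Fads1, Fads2 and Fads3 and the elongases Elovl1, Elovl3, Elovl5, Elovl6 and Elovl7, taken by symbol as 10 of the 43629 genes in the count table. 3T3-L1 is an established line of mouse pre-adipocytes, so every culture comes from 1 line, here differentiated with insulin, dexamethasone, isobutylmethylxanthine and rosiglitazone. On day 8 the cells were left untreated or were given, for 24 h, A66 at 2 µM (a p110α-selective inhibitor), palmitate at 0.5 mM bound to albumin, or both agents, with 2 libraries in each of the 4 groups. The paper's methods, which describe the cultures without palmitate, give a lower dose of A66 and a DMSO vehicle, whereas the labels give the dose above and untreated cells as the control. No group with albumin alone is named in the labels, so palmitate and its carrier cannot be told apart. No transcript checks which libraries received the inhibitor, and each direction given for A66 rests on the labels.

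Desaturases place a double bond in a fatty acyl chain, and elongases carry out the first, rate-setting step of adding carbons to it. Scd1 and Scd2 encode stearoyl-CoA desaturases, which turn saturated acyl chains such as those of palmitate and stearate into monounsaturated ones, a step by which adipocytes prepare acyl chains for triglycerides. Fads1 and Fads2 encode the front-end desaturases of polyunsaturated fatty acid synthesis, Fads3 acts on sphingoid bases, Elovl6 extends palmitate to stearate, Elovl5 extends polyunsaturated and some monounsaturated chains, and Elovl1, Elovl3 and Elovl7 act on long and very long chains.

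In GRCm38, with the gene models of GENCODE release M21, 6 of the 10 genes lie on chromosome 19. Scd1 (ENSMUSG00000037071, chr19:44394455-44407879, minus strand) and Scd2 (ENSMUSG00000025203, chr19:44293674-44306864, plus strand) are 87.6 kb apart. Fads1 (ENSMUSG00000010663, chr19:10182888-10196877, plus strand), Fads2 (ENSMUSG00000024665, chr19:10062765-10101746, minus strand) and Fads3 (ENSMUSG00000024664, chr19:10041569-10060110, plus strand) form a cluster in which Fads2 and Fads3 are separated by 2.65 kb. Elovl3 (ENSMUSG00000038754, chr19:46131897-46135694) is on the plus strand of the same chromosome. Elovl1 (ENSMUSG00000006390, chr4:118428093-118432953), Elovl5 (ENSMUSG00000032349, chr9:77917364-77984519), Elovl6 (ENSMUSG00000041220, chr3:129532355-129638495) and Elovl7 (ENSMUSG00000021696, chr13:108214404-108285683) are also on plus strands.

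All 10 genes carry a histidine box in their coding sequence, a motif that in the desaturases helps to hold the iron of the active site and in the elongases is needed for the condensation step. The coding windows of 4 desaturases and 2 elongases are shown because they make the kinship within each family visible, with the 5 codons of the box in capitals, of which the first, the fourth and the fifth encode histidine (GRCm38, each within 1 exon).
Scd1, chr19:44401845-44401883, minus strand: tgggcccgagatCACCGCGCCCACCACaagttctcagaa
Scd2, chr19:44299624-44299662, plus strand: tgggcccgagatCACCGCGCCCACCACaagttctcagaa
Fads1, chr19:10186773-10186811, plus strand: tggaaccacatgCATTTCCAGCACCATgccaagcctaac
Fads2, chr19:10082634-10082672, minus strand: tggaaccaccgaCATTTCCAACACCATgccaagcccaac
Elovl5, chr9:77976838-77976876, plus strand: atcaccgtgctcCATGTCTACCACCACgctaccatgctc
Elovl6, chr3:129633095-129633133, plus strand: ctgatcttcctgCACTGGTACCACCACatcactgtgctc
The Scd1 and Scd2 windows are the same letter for letter. Over 1065 aligned coding bases, Scd2 matched Scd1 at 86.9% and Scd3, another stearoyl-CoA desaturase gene of the cluster, at 88.1%. The stretch of 60 coding bases below is shown because a read lying wholly within it cannot be assigned to Scd1, Scd2 or Scd3.
Scd1, chr19:44401695-44401754, minus strand: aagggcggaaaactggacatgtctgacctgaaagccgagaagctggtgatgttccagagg
Scd2, chr19:44299753-44299812, plus strand: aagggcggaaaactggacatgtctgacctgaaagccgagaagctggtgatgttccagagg
Scd3, chr19:44235915-44235974, plus strand: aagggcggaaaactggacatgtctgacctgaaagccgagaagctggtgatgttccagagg
Of the 100-base windows in the annotated transcripts, 2.58% of those of Scd1, 0.879% of those of Scd2 and 0.868% of those of Elovl6 also occur in another gene, against 0 for the other 7 members. Exons of Elovl1 overlap those of Cdc20 on the opposite strand by 53 bases, exons of Elovl6 overlap the antisense gene Gm35986 by 34 bases, and those of Elovl3 overlap Pitx3 on the opposite strand by 10. Exons of Scd2 share 61 bases with the microRNA gene Mir5114 on the same strand, which strand would not resolve. The library kit kept strand, but whether the counting used strand is not given in the sources used here.

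The libraries held between 42247091 and 57529803 counts, so that 3 counts, taken as the floor, correspond to 0.0521 to 0.0710 CPM, in which a gene's counts are scaled to the total of its library. This floor covers counting error only. CPM values were scaled over all 8 libraries with the TMM method of edgeR. Replicates of a group differed by more than counting error (chi-square per gene of 6.15 to 8.99 on average, against 1 for counting error). The methods speak of biological repeats without further detail, and p-values measure the spread between these cultures. The adipocyte label was checked on markers, and all 10 adipocyte genes had counts, with Adipoq at 2049 to 2547 CPM. Among the 10 preadipocyte or fibroblast markers, Dlk1 and Dpp4 had 0 counts in all 8 libraries. The other 8 had counts, with Col1a1 at 576 to 773, Pdgfrb at 191 to 219 and Pdgfra at 87.9 to 108 CPM. Among those 8, Cd34 and Pi16 were scarce, with 118 and 125 counts over all libraries and at most 0.39 and 0.49 CPM. Among the 6 brown or beige markers Ucp1 had 0 counts in all libraries and Cox8b had 11.9 to 19.2 CPM.

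Scd1 was the most abundant of these transcripts in every library, per kilobase of exon. In untreated cells the mean level was 1719 ± 15.05 CPM per kb (SD, n = 2) for Scd1 and 363 ± 5.73 for Scd2. Fads3 had 75.9 ± 0.174, Fads1 62.7 ± 0.182 and Fads2 36.7 ± 0.118 CPM per kb (SD, n = 2 each). The elongases were lower, with 26.02 ± 0.859 for Elovl1, 23.5 ± 0.900 for Elovl5 and 6.65 ± 0.00181 for Elovl6 (CPM per kb, SD, n = 2 each). With palmitate Fads3 at 82.3 ± 1.42 and Fads1 at 81.3 ± 3.11 CPM per kb (SD, n = 2 each) lay within their spread, and so did Elovl1 at 26.7 ± 1.42 and Elovl5 at 27.8 ± 0.0435 with both agents (SD, n = 2 each). Scd1 alone took 0.846% to 0.850% of all counts in the untreated libraries and 1.08% to 1.20% with palmitate plus A66. Elovl3, known from brown fat and skin, had 1 count in 1 A66 library and in 1 library with both agents, and 0 counts in the other 6. Elovl7 had 0 to 7 counts per library. Neither gene passed the filter on low counts, so 8 of the 10 members were tested, and at this depth a level of Elovl3 or Elovl7 near the floor was not measurable.

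**Figure D1:**
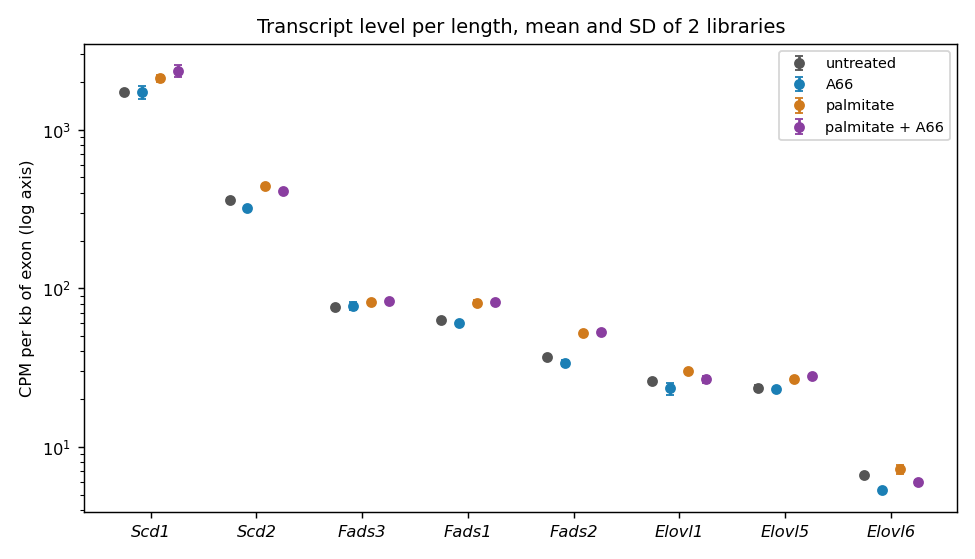
Level of the 8 tested genes in CPM per kb of exon on a log axis, as the mean (point) and SD (bar) of 2 libraries in untreated, A66, palmitate and palmitate plus A66 cells. Scd1 lies highest in each group, from 1719 in untreated cells to 2356 CPM per kb with both agents, and Elovl6 lowest, at 5.32 to 7.22 CPM per kb.

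The first question was how the saturated fatty acid load changed these genes. With palmitate, 5 of the 8 tested members rose over untreated cells, namely Fads2, Fads1, Scd1, Scd2 and Elovl5, by 1.14- to 1.43-fold, and 0 fell. Across all 14587 genes tested, 0.631% were called higher and 0.542% lower (edgeR quasi-likelihood test, Benjamini-Hochberg adjustment, adjusted p under 0.05). The median log2 fold change was 0.24 over the 8 members tested and 0.00053 over all genes. In bulk RNA, fewer cells of a type and less RNA per cell cannot be told apart.

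Fads2, the Δ6 desaturase gene, had 121 and 121 CPM in untreated cells and 175 and 171 with palmitate. Both palmitate libraries lay well above both untreated ones. The log2 fold change was 0.52 (SE 0.043, 95% interval 0.43 to 0.61, adjusted p = 1.39e-07), or 1.43-fold. Fads1, the Δ5 desaturase gene that acts after Fads2, rose from 302 and 301 CPM to 381 and 402 CPM. Its log2 fold change was 0.37 (SE 0.041, adjusted p = 6.86e-06), again with groups that did not overlap. Fads3, the third gene of the cluster, had 287 and 288 CPM untreated and 308 and 316 CPM with palmitate. Its log2 fold change of 0.12 did not pass the threshold (95% interval 0.028 to 0.20, adjusted p = 0.232).

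Scd1 had 8460.0 and 8356 CPM in untreated cells and 9993 and 10742 with palmitate. The palmitate libraries were both higher, although they also differed from each other more than the untreated ones did. The log2 fold change was 0.30 (SE 0.059, adjusted p = 0.00866), or 1.23-fold. Its call was lost with the Wald test of DESeq2 (adjusted p = 0.0754), without untreated replicate 1 (0.0684) and without untreated replicate 2 (0.0611), within a range of 1.42e-20 to 0.0754 over 15 alternatives. Scd2 rose from 2006 and 1962 CPM to 2419.7 and 2383 CPM, with replicates close together and far from the other group. Its log2 fold change was 0.28 (SE 0.040, adjusted p = 3.42e-04), or 1.21-fold.

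Of the elongases, Elovl5 had 85.2 and 80.7 CPM untreated and 96.0 and 93.1 with palmitate. The 2 groups were apart, but in proportion the gap between them was the smallest of the 5 called genes. Its log2 fold change was 0.19 (SE 0.044, adjusted p = 0.0294). The call was lost in a fit on only these 4 libraries (adjusted p = 0.0562), without untreated replicate 2 (0.187) and without palmitate replicate 1 (0.259), within a range of 0.00446 to 0.259 over 15 alternatives. Elovl1 had 69.3 and 72.6 CPM untreated and 81.2 and 82.5 with palmitate, and Elovl6, which extends palmitate itself, had 42.7 and 42.8 against 48.6 and 44.3 CPM. Both genes had higher values in each palmitate library, without a call. The log2 fold change of Elovl1 was 0.21 (adjusted p = 0.0654, and 0.00293 to 0.362 over 15 alternatives, 5 of which called it). For Elovl6 it was 0.12 (95% interval 0.0054 to 0.24, adjusted p = 0.382). All 8 tested members had both palmitate libraries above both untreated ones, which was the case for 20.4% of all genes tested, and 0 had both below (20.2% of all genes).

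**Figure D2:**
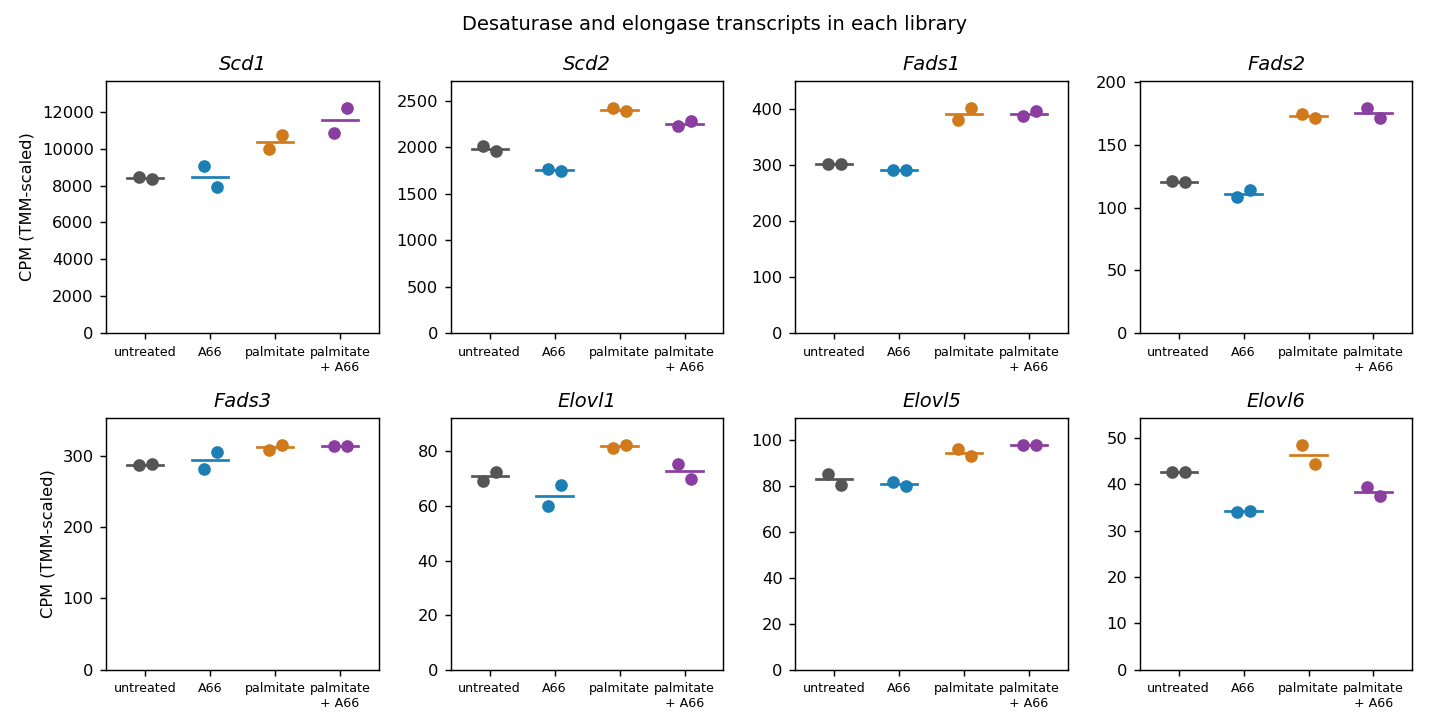
CPM (TMM-scaled, axes from 0) of the 8 tested genes in each library, with 1 point per library and a line at the mean of each group of 2. In all 8 panels the palmitate points lie above the untreated points, and for Elovl6 and Scd2, the genes called with A66, the A66 points lie below them.

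The same load was measured in inhibited cells, by setting palmitate plus A66 against A66 alone. This comparison has no library in common with the one above, although both use 1 estimate of the spread. Scd1, Scd2, Fads1, Fads2 and Elovl5 rose here, so that 5 of 8 members were called higher and 0 lower, against 1.46% higher and 1.27% lower of all genes. The median log2 fold change was 0.32 over the 8 members and 0.00044 over all genes.

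Fads2 had 108 and 114 CPM with A66 and 179 and 172 with both agents. The groups were again far apart, with a log2 fold change of 0.66 (SE 0.043, 95% interval 0.57 to 0.75, adjusted p = 1.79e-09), or 1.58-fold. Fads1 rose from 291 CPM in both A66 libraries to 387 and 397 CPM (log2 fold change 0.43, adjusted p = 5.00e-07). Scd1 had 9052 and 7911 CPM with A66 and 10850 and 12201 with both agents. The libraries spread widely within each group, yet the groups did not overlap, and the log2 fold change was 0.44 (SE 0.059, adjusted p = 5.48e-05), or 1.36-fold. Scd2 rose from 1761 and 1739 to 2226 and 2275 CPM (log2 fold change 0.36, adjusted p = 4.28e-06). Elovl5 rose from 81.9 and 80.2 to 98.0 and 97.8 CPM (log2 fold change 0.27, adjusted p = 5.65e-04). These 5 calls stood under all 15 alternatives tried, some of which left out a library of neither group.

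Elovl1 had 59.8 and 67.5 CPM with A66 and 75.5 and 70.0 with both agents, and its log2 fold change of 0.19 missed the threshold (adjusted p = 0.0589, and 0.00952 to 0.631 over 15 alternatives, 5 of which called it). Elovl6 (log2 fold change 0.17, adjusted p = 0.137) and Fads3 (0.098, adjusted p = 0.272) were not called either. All 8 members had both libraries with palmitate plus A66 above both A66 libraries, as did 23.2% of all genes tested, and 0 had both below (23.4% of all genes).

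The next question was whether the inhibitor itself changed these genes. Without palmitate, Elovl6 and Scd2 fell with A66, and 0 of the 8 tested members rose. Across 14158 genes tested, 0.77% were called lower and 1.07% higher, and the median log2 fold change was -0.084 over the 8 members and -0.0011 over all genes. Elovl6 had 42.7 and 42.8 CPM in untreated cells and 34.1 and 34.4 with A66. Replicates were nearly equal, and the groups were clearly apart. The log2 fold change was -0.32 (SE 0.056, adjusted p = 0.00245), or 0.802-fold, and it stayed called under all 11 alternatives. Scd2 fell from 2006 and 1962 CPM to 1761 and 1739 CPM (log2 fold change -0.18, SE 0.035, adjusted p = 0.00703), or 0.884-fold. This call was lost without A66 replicate 1 (adjusted p = 0.0504) and without A66 replicate 2 (0.130), within a range of 7.10e-06 to 0.130 over 11 alternatives.

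Scd1 gave no such call, and the A66 libraries at 9052 and 7911 CPM lay on either side of the untreated ones. The interval of its log2 fold change, -0.075 to 0.11 around 0.016, leaves room for small changes in both directions (adjusted p = 0.928). Fads1, Fads2 and Elovl1 were lower in both A66 libraries than in both untreated ones, without a call. Their log2 fold changes were -0.051 for Fads1 (adjusted p = 0.645), -0.12 for Fads2 (0.214) and -0.15 for Elovl1 (0.187). Elovl5 at -0.028 (adjusted p = 0.863) and Fads3 at 0.032 (0.826) overlapped between the groups. Both A66 libraries lay below both untreated ones for 5 of the 8 members and above them for 0, against 22.3% and 20.3% of all genes tested.

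Under the fatty acid load, Elovl6 fell with A66, and 0 of the other 7 tested members were called. Elovl6 had 48.6 and 44.3 CPM with palmitate and 39.4 and 37.4 with both agents. Both libraries with the inhibitor lay below both without it, and the log2 fold change was -0.27 (SE 0.056, adjusted p = 0.00654), or 0.827-fold. Of all genes tested, 1.84% were called lower and 0.973% higher in this comparison. The call was lost without palmitate replicate 1 (adjusted p = 0.0958) and without palmitate plus A66 replicate 2 (0.103), within a range of 3.57e-04 to 0.103 over 15 alternatives. Scd2 was at 2419.7 and 2383 CPM with palmitate and at 2226 and 2275 with both agents (log2 fold change -0.094, adjusted p = 0.274), and Scd1 at 9993 and 10742 against 10850 and 12201 CPM (0.15, adjusted p = 0.200). These 2 stearoyl-CoA desaturases had opposite signs here, with groups that did not overlap for either. Both libraries with the inhibitor were higher for 2 of the 8 members and lower for 3, against 21.9% and 22.4% of all genes tested. Elovl1 had a log2 fold change of -0.17 (adjusted p = 0.0994). Fads1 (0.0023), Fads2 (0.019), Fads3 (0.011) and Elovl5 (0.050) stayed near 0, with adjusted p values of 0.658 to 0.993.

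**Figure D3:**
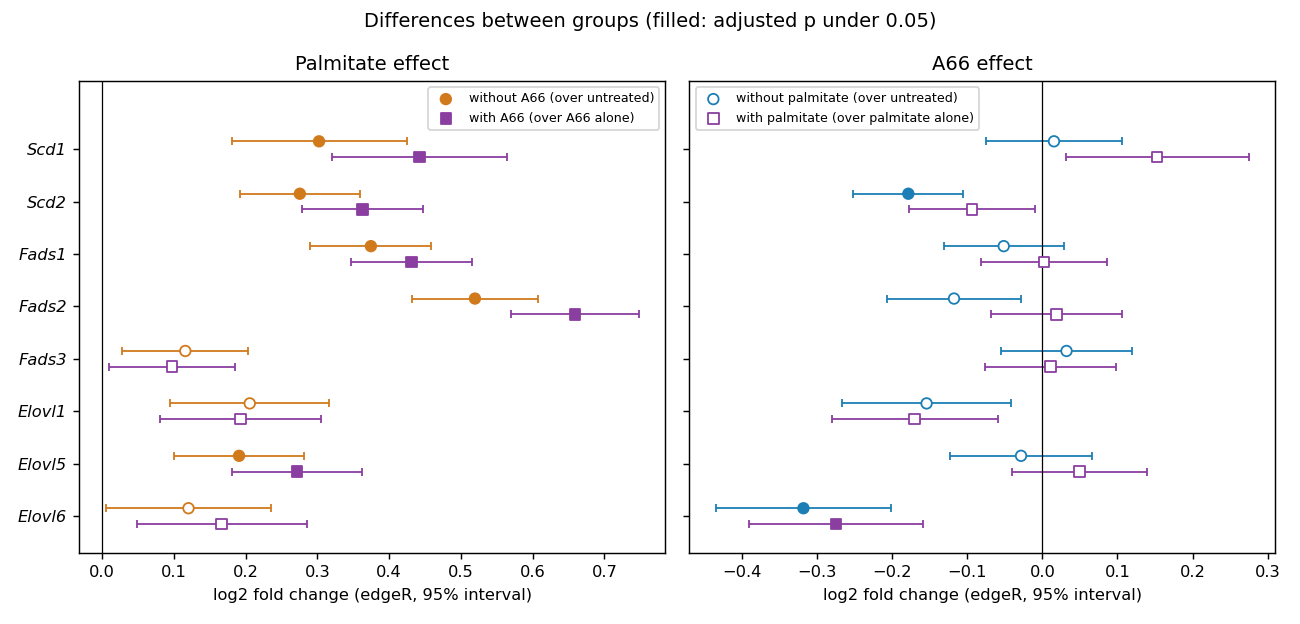
Log2 fold changes of the 8 tested genes with 95% intervals, for palmitate without and with A66 (left) and for A66 without and with palmitate (right), with filled symbols at an adjusted p under 0.05. On the left the 8 genes lie above 0, up to 0.66 for Fads2, and on the right Elovl6 is filled in both series, at -0.32 and -0.27.

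Whether the palmitate response differed with the inhibitor was tested as an interaction. Of the 8 members, 0 were called by edgeR and 0 by DESeq2, and 1 (Fads2) had an unadjusted p under 0.05. Across all 14587 genes edgeR called 1, which is 0.00686% higher and 0% lower, and DESeq2 called 21. For Fads2 the palmitate response was larger with A66 by 0.14 on the log2 scale (95% interval 0.014 to 0.26, adjusted p = 0.588, edgeR). The corresponding difference was 0.14 for Scd1 (interval -0.032 to 0.31), 0.088 for Scd2 (-0.031 to 0.21) and 0.046 for Elovl6 (-0.12 to 0.21). The intervals of Scd1, Scd2 and Elovl6 hold 0 and also differences about as large as the weaker palmitate responses above, and that of Fads2 lies above 0 without passing the adjustment, so it is not settled whether A66 altered these responses.

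The ratio of Scd1 to Scd2, each per kilobase, was taken up after the values had been seen and was not tested. It was 4.71 and 4.76 in the untreated libraries, 5.74 and 5.08 under A66, 4.61 and 5.04 under palmitate, and 5.45 and 5.99 under both. Each A66 library had a higher ratio than each library without A66, with or without palmitate. All members together made up 1.14% of the counts in both untreated libraries and 1.41% to 1.53% with palmitate plus A66.

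Genes around the desaturases and elongases were read from 6 lists. The other desaturase and elongase genes were scarce apart from Degs1, a sphingolipid desaturase gene at 191 to 211 CPM. Elovl2 had 0 counts in all libraries, Scd4 and Elovl4 stayed under 0.5 CPM, and of 7 listed genes 4 were tested. Palmitate changed 0 of them without A66 (0 with an unadjusted p under 0.05 and 0 by DESeq2), and with A66 Scd3 rose by 0.53 on the log2 scale (adjusted p = 0.00984). Scd3 had 325 to 535 counts per library, against 359234 to 607789 for Scd1, which rose in the same comparison. Of the 100-base windows of Scd3, 2.49% also occur in another gene, among them Scd1. Whether reads of Scd1 entered the counts of Scd3 was not tested.

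Each round of elongation is completed by a reductase, a dehydratase and a second reductase. Of the 6 genes for these partners, 1 rose with palmitate and 0 fell, both without and with A66. It was Tecr, the final reductase, at 192 CPM in both untreated libraries and 214 and 233 with palmitate (log2 fold change 0.22, adjusted p = 0.0122). The 2 groups did not overlap, and the log2 fold change over A66 was 0.32 (adjusted p = 8.15e-05). Hsd17b12, the first reductase, gave 0.16 (adjusted p = 0.0945) and 0.12 (0.172). Without A66, DESeq2 called 3 of the 6, adding Hsd17b12 as higher (adjusted p = 0.0484) and the dehydratase gene Hacd2 as lower (0.0441), where edgeR gave Hacd2 -0.14 (0.124). Over A66 it called 1, Tecr. The desaturases draw electrons from cytochrome b5 and its reductases, of which 5 of 6 listed genes were tested. Palmitate called 0 of them in untreated cells (3 with an unadjusted p under 0.05, and 1 by DESeq2) and 1 as higher over A66, Cyb5r1 with 0.19 (adjusted p = 0.00748).

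Among 6 genes of lipogenesis, Acly, which makes cytosolic acetyl-CoA, rose from 438 CPM in both untreated libraries to 581 and 569 CPM with palmitate. Replicates hardly differed beside that step, and the log2 fold change was 0.39 (adjusted p = 2.09e-06) and 0.44 over A66 (2.14e-07). Thrsp, a lipogenic gene without a known catalytic role, moved the other way. It fell with palmitate by 0.26 (adjusted p = 0.0331) and over A66 by 0.28 (0.00830), and with A66 by 0.22 without palmitate (0.0331) and by 0.26 with it (0.0193). DESeq2 called Thrsp in none of these 4 comparisons. Fasn, the fatty acid synthase gene, was not called by edgeR, with log2 fold changes of -0.14 to -0.072 in the 4 comparisons, whereas DESeq2 called it lower with A66 without palmitate (adjusted p = 0.0359) and with it (0.0135). DESeq2 also called Acly lower with A66 alone (adjusted p = 0.0247). With A66, edgeR called 1 of the 6 lower without palmitate and 1 with it, and 0 higher. Of the 6, 6 and 5 had an unadjusted p under 0.05, against 1813 of 14158 and 2101 of 14587 genes tested. Acaca was lower in both comparisons, at -0.11 (adjusted p = 0.161) and -0.092 (0.256). Acacb was higher in both, at 0.16 (0.056) and 0.16 (0.121). Me1, an NADPH source, rose over A66 by 0.19 (adjusted p = 0.0108), which makes 1 of 6 higher and 1 lower without A66 and 2 higher and 1 lower with it by edgeR, against 1 higher and 2 higher by DESeq2, without a lower call.

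Of 11 regulators of lipid synthesis through SREBP, LXR and ChREBP, 2 rose with palmitate and 0 fell, both without and with A66. Insig1, which holds SREBP in the endoplasmic reticulum and is itself an SREBP target, had 262 and 282 CPM untreated and 350 and 372 with palmitate. Its groups were well apart, with log2 fold changes of 0.41 (adjusted p = 6.86e-06) and, over A66, 0.45 (7.88e-07). Srebf2, the SREBP gene best known for cholesterol synthesis, gave 0.35 (1.68e-05) and 0.34 (1.46e-05). Srebf1, best known for fatty acid synthesis, was not called, at -0.073 (0.641) and -0.12 (0.306). A66 called 0 of the 11 without palmitate (1 with an unadjusted p under 0.05, 0 by DESeq2), with Mlxipl, the ChREBP gene, at -0.47 (adjusted p = 0.0588), and 0 with palmitate (4 unadjusted, 0 by DESeq2). Mlxipl, at 5.20 to 9.95 CPM, was also lower with palmitate over untreated cells, at -0.55 (adjusted p = 0.0751), but not over A66, at 0.077 (0.881). Its interaction was 0.63 (adjusted p = 0.457). The list medians were near those of all genes for palmitate, at 0.0090 without A66 and 0.047 with it.

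The 12 genes read as a fatty acid response through PPAR gave 0 calls with palmitate in untreated cells (1 with an unadjusted p under 0.05 and 1 called by DESeq2). Over A66, 1 of 12 rose, the lipid droplet gene Plin2 with 0.21 (adjusted p = 0.00737), which had 0.17 (0.0572) without the inhibitor. A66 called 0 of them without palmitate (4 unadjusted, 0 by DESeq2) and 0 with it (4 unadjusted, 1 by DESeq2). For the desaturase, elongation and electron transfer lists, A66 likewise gave 0 calls in either comparison by edgeR, with 0 to 3 genes of each list at an unadjusted p under 0.05, and DESeq2 called 1 electron transfer gene with palmitate and 0 others.

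**Figure D4:**
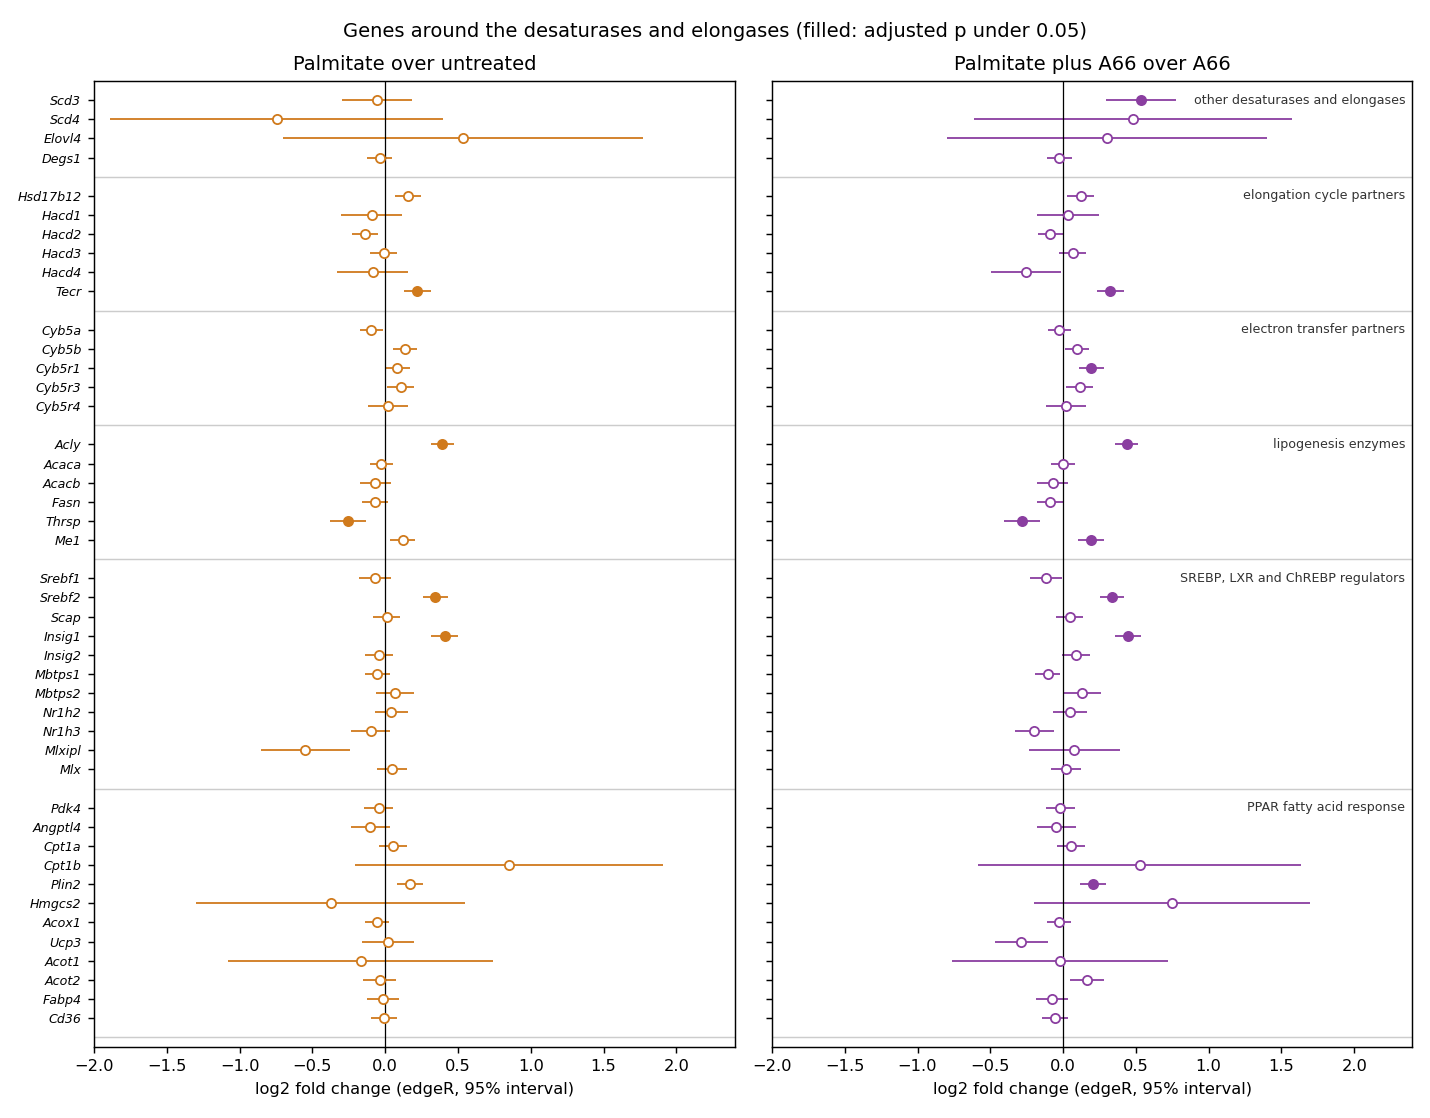
Log2 fold changes with 95% intervals for the tested genes of 6 lists, for palmitate over untreated (left) and palmitate plus A66 over A66 (right), with filled points at an adjusted p under 0.05. Insig1, Srebf2, Acly and Tecr are filled to the right of 0 in both panels and Thrsp to the left in both.

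The patterns most like those of Fads2 and Scd2, the members whose group means ranged most widely (0.66 and 0.46 on the log2 scale), were sought among 8955 genes with a mean of at least 10 CPM. Likeness was the root mean square difference over the 3 log2 differences against untreated cells. The 5 nearest to Fads2 were Msmo1 (0.058), Acss2 (0.076), Fdft1 (0.081), Aldh1a7 (0.093) and Cyp51 (0.11). Msmo1, Fdft1 and Cyp51 encode enzymes of cholesterol synthesis, and Acss2 makes acetyl-CoA from acetate. Among the 5 nearest to Scd2 were Lrpap1 (0.022), Slc25a1 (0.027), Sspo (0.037) and Hmgcs1 (0.039), of which Slc25a1 exports citrate from mitochondria and Hmgcs1 acts early in cholesterol synthesis. The 3 differences share the untreated libraries, and the measure is a description over 4 groups.

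**Figure D5:**
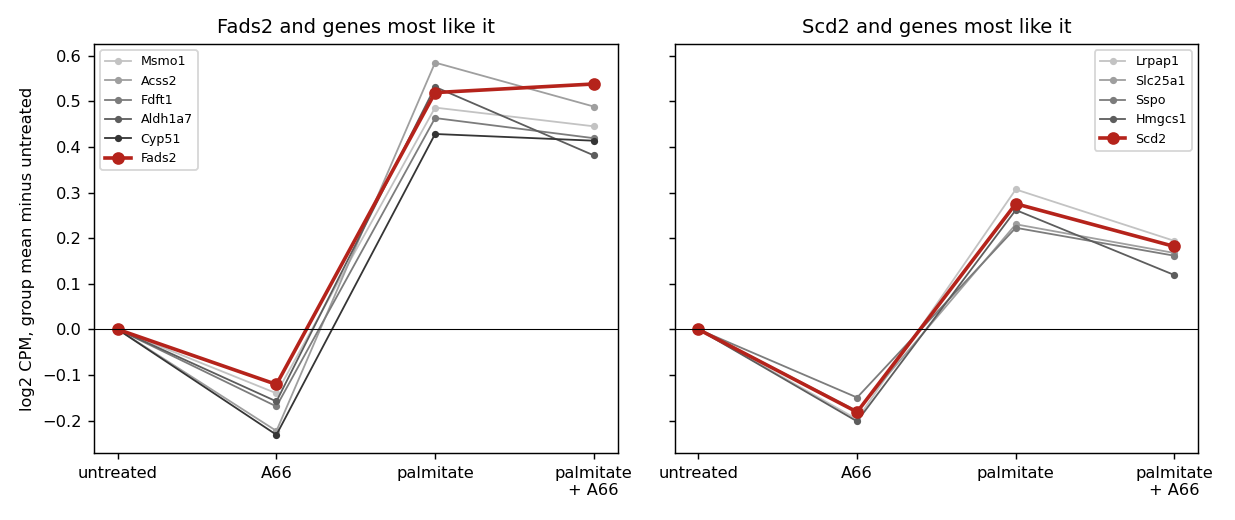
Group means of log2 CPM minus the untreated mean, for Fads2 (left) and Scd2 (right) in red, with 5 genes near Fads2 and 4 near Scd2 in grey. Fads2 and its neighbours lie below 0 with A66 and above 0.38 in both groups with palmitate, while Scd2 is at -0.18 with A66, 0.28 with palmitate and 0.18 with both agents.

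The promoters of 6 of the 10 members were matched in the RefSeq table of GRCm38.p6, as windows of 300 bases around the annotated start. On both strands they were searched for 4 motifs. TCACNCCA, which resembles the sterol response element, occurs in 4.36% of 32851 such windows. The share was 37.4% for CCAAT, the box bound by NF-Y. It was 7.15% for the E-box CACGTG, and it was 35.7% for the GC box GGGCGG. A GC box and CCAAT can share letters, as they do in a window of Elovl1. TCACNCCA was in 0 of the windows of Elovl1, Elovl5, Elovl6, Elovl7, Fads2 and Fads3. The called members among those searched are Fads2, with 1 GC box, Elovl6, with none of the 4 motifs, and Elovl5, with CCAAT at 2 places and the E-box at 1. The window of Fads2 (chr19:10101454-10101753, minus strand) lies almost wholly within its GENCODE gene model. Sequence before the start of that model was therefore hardly searched for Fads2. The part before the start of Elovl5 is shown as the member called with palmitate that held the most of these letters, with matches in capitals (chr9:77917115-77917363, plus strand, CCAAT read on the other strand).
Elovl5 promoter: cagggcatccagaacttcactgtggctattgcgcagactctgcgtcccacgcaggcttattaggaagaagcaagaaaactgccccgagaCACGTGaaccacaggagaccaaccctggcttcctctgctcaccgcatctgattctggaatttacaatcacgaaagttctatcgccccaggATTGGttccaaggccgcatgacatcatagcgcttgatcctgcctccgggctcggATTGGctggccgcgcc
A match is a description of the letters, and no binding was measured.

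Markers of cell identity were read beside these results. The 10 adipocyte markers summed to 8838 to 9130 CPM in untreated libraries, 9149 to 9694 under A66, 8155 to 8915 under palmitate and 7869 to 8638 under both. In the comparison of palmitate plus A66 with A66, in which 5 members rose, 6 of these 10 markers fell (3 by DESeq2), among them Retn by 0.32 on the log2 scale (adjusted p = 2.95e-04) and Plin1 by 0.28 (0.00234). With palmitate over untreated cells 0 of 10 were called (2 with an unadjusted p under 0.05, 0 by DESeq2), and with both agents over palmitate 2 of 10 fell (1 by DESeq2). With A66 over untreated cells 0 of 10 were called (5 with an unadjusted p under 0.05, 0 by DESeq2). The 10 preadipocyte or fibroblast markers summed to 984 to 1014 CPM in untreated libraries, 970.0 to 982 under A66, 1100.3 to 1156 under palmitate and 942 to 973 under both. Col1a1, the most abundant of them, makes up most of these sums. It rose with palmitate by 0.25 (adjusted p = 0.00331) and fell with both agents over palmitate by 0.33 (1.75e-04). It was the only 1 of the 8 tested markers that edgeR called in either comparison. With both agents over palmitate, Ly6a went the other way, at 0.37 (adjusted p = 0.0511, edgeR), and DESeq2 called it higher (0.0481). The 6 brown or beige markers summed to 16.96 to 20.99 CPM untreated, 17.6 to 20.6 under A66, 17.5 to 19.4 under palmitate and 12.7 to 14.4 under both. Cox8b made up most of each sum. With both agents it was called lower over palmitate, at -0.46 (adjusted p = 0.0153, edgeR), and over A66, at -0.52 (0.00496). The part of these markers in the results above was not tested.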

How the data were processed

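RNA with a poly(A) tail from 8 cultures of 3T3-L1 adipocytes was sequenced from stranded libraries, 1 library per culture. Per the labels and the paper's methods, reads were aligned by the authors to GRCm38 with TopHat 2.0.11 and counted with HTSeq, and the deposited values are raw counts for each Ensembl gene. The strand setting and the annotation release are not given in the sources used here. The authors also deposited columns of their own DESeq2 comparison (mean, fold change, standard error, test statistic and p-values), which were not used. Of 43629 genes, 42462 matched a symbol in GENCODE M21, and 327 without a match had counts.

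Groups were compared with edgeR 4.0.16 under R 4.3.3 (TMM, filterByExpr with a minimum count of 10, quasi-likelihood test, Benjamini-Hochberg adjustment over all genes tested, threshold 0.05). All 8 libraries shared 1 fit, except that A66 alone was set against untreated cells in a fit on those 4 libraries. Intervals are 95%. The scripts were tested on simulated data. Groups came from the treatment in the labels. The alternatives were RLE or library-size scaling, DESeq2 1.42.0, no filter, a minimum of 10 counts per library, another choice of libraries to fit, a replicate block and leaving out each library. In the shared fit, the libraries left out included those of groups outside a comparison. These act on it only through the shared scaling, filter and estimate of the spread. For each list the rule took the 2 genes with the smallest p in each comparison, not all of which are given, and counted the rest. Fasn, Acaca, Me1, Srebf1, Degs1, Elovl2, Elovl4, Adipoq, Ucp1, Cd34, Pi16 and the preadipocyte markers at 0 are named in addition. Likeness used log2 CPM with a prior count of 2, and 1 of the genes it found is not reported here. The members and lists were chosen with earlier results of these data known. Promoters are from RefSeq, and gene models, coding windows and exon lengths from GENCODE.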

Additional observations from a re-analysis of the deposited data

Results flagged for a closer look

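None of the 8 tested members had opposite signs, with groups apart in both, for 1 agent without and with the other, and no group is large enough for a test of outlying libraries. Some genes of the surrounding lists lay in opposite directions, without overlap between libraries, under the same contrast in 2 settings, and the interaction was called for none of them by edgeR. Scd3 had 7.82 and 8.45 CPM in untreated libraries, 6.28 and 7.61 under A66, 7.73 and 7.93 under palmitate and 9.34 and 10.7 under both, so that A66 went with lower values without palmitate and higher values with it, a difference of 0.59 on the log2 scale (adjusted p = 0.331). Cyb5a and Cyb5r1, of the electron transfer list, showed the same opposition with differences of 0.070 (adjusted p = 0.809) and 0.11 (adjusted p = 0.666). Insig2 was lower without and higher with the other agent, both for A66 and for palmitate, with a difference of 0.13 (adjusted p = 0.647). Ucp3, of the PPAR list, was higher with A66 alone and lower with A66 under palmitate, with a difference of -0.31 (adjusted p = 0.554). The limit given above for the counts of Scd3 applies here as well.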

How the results depend on the processing

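Fads1, Fads2 and Scd2 stayed called with palmitate in all 15 alternatives, as did the 5 members called with palmitate plus A66 over A66 and Elovl6 with A66 in all 11. Without a filter, the counts of genes called were 396 with palmitate (171 as reported), 459 with A66 (261), 652 with both agents over palmitate (410, with 3 members in place of 1), 664 over A66 (398) and 91 for the interaction (1). The interaction count was 2 with library-size scaling, 21 with DESeq2 and 3 with the replicate block. A fit on the 4 libraries gave 689 genes for both agents over A66. Leaving out 1 library at a time gave 71 to 245 genes and 3 to 6 members with palmitate, 98 to 635 and 1 to 2 with A66, 147 to 494 and 0 to 1 with both agents over palmitate, 107 to 502 genes over A66, and 0 to 10 for the interaction. The lowest member counts came without untreated replicate 2 for palmitate, without either A66 replicate for A66, and without palmitate replicate 1 or palmitate plus A66 replicate 2 for both agents over palmitate.

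Same-numbered replicates did not pair (correlations of their deviations from -0.15 to 0.15 over 8956 genes). The replicate block gave 195, 282, 448 and 438 genes in the order of comparisons above and changed no call of a member. Crossing the numbers between A66 and both agents, chosen after seeing the data, called 1371 genes and 8 members, against 760 genes uncrossed. Library-size scaling shifted the share of higher calls to 44.1% with palmitate (92 of 171 as reported), 45% with A66 (152 of 261), 23.4% (142 of 410) and 40.4% (213 of 398). The signs that turned all belong to uncalled values. With A66, leaving out 1 library gave -0.085 to 0.11 for Scd1 (-0.00019 with library-size scaling), -0.023 to 0.088 for Fads3 and -0.065 to 0.0097 for Elovl5. With both agents over palmitate it gave -0.036 to 0.042 for Fads1 (-0.017 with library-size scaling, -0.0015 without a filter), -0.0068 to 0.029 for Fads3 (-0.0079 with library-size scaling) and -0.013 to 0.051 for Fads2. For the interaction it gave -0.10 to 0.076 for Elovl1, -0.077 to 0.039 for Fads3 and -0.019 to 0.11 for Elovl6. The cause was not tested.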
